A study of Mus musculus with 10 samples.

Results

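Cell cycle and DNA replication genes were examined as a list of 41 genes, found by gene name among the 54532 genes of the table. The list was split by role into 8 G1 cyclins and their kinases, 2 inhibitors of these kinases, 6 genes of S phase control, 6 genes of the MCM helicase, 4 genes of the replication clamp and of nucleotide supply, 7 genes of mitotic entry and 8 genes of chromosomes and spindle. Expression was measured by RNA-seq in 10 retina samples from BALB/c mice, which are albino and were 2 months old. Mice of both groups were first kept in the dark for 12 hr. In the normal light (NL) group 5 samples came from mice under 200 lux, and in the light damage (LD) group 5 samples came from mice under 15000 lux for 1 day. Samples are named NL-1, NL-4, NL-5, NL-7 and NL-8, and LD-1, LD-4, LD-6, LD-7 and LD-8, and the labels do not say whether each sample is 1 retina or a pool.

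As background, D-type cyclins with Cdk4 or Cdk6 and E-type cyclins with Cdk2 drive cells from G1 into S phase, where E2F factors switch on the genes of replication. The MCM complex is loaded on DNA and, once active as a helicase, opens the double helix, and Cdk1 with A- and B-type cyclins later drives mitosis. Neurons of the adult mouse retina do not divide, whereas Müller glia and immune cells are known to be able to enter the cell cycle in a damaged retina.

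The deposited values held 21343389 to 26832535 reads for each NL retina and 18965090 to 23378090 for each LD retina. The reads of NL-5 and NL-7, of LD-1 and LD-7, and of LD-4 and LD-6 were closer to each other (chi-square per gene 2.65 to 3.65) than those of the other pairs within a group (12.2 to 43.4), so the 10 samples may not be fully independent. The retina's defining rod markers were abundant: the 6 markers summed to 7970 to 9741 FPKM (fragments per kilobase of gene, scaled to library size) under NL. After LD they summed to 1163 to 2373 FPKM, and all 6 fell. In these bulk samples fewer cells of a type and less RNA per cell cannot be told apart.

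Cell cycle genes rose after LD or did not pass the test, and none fell, apart from *Tyms* under 4 of the alternatives. Of the 41 genes, 38 passed the filter (0.1 FPKM or more in 5 or more retinas), and *Ccnb1*, *Bub1* and *Cenpf* did not. The limma fit gave each gene a log2 fold change on log2(FPKM + 0.1), LD minus NL (log2FC), with its standard error (SE) and adjusted p. At an adjusted p under 0.01 and over 2-fold, 10 genes rose (*Ccnd1*, *Ccnd3*, *Uhrf1*, *Mcm3*, *Rrm2*, *Cdk1*, *Mki67*, *Top2a*, *Aurkb* and *Birc5*), where 4.13% of all 24508 genes tested did, and 0 fell, against 2.37% of all. At an adjusted p under 0.05 with no minimum fold, 21 genes rose and 0 fell, against 14.5% and 13.4% of all genes tested, and the other 17 were not called. In 20 genes the lowest LD value exceeded the highest NL value, and in 0 the highest LD value was below the lowest NL value, against 11.8% and 10.6% of all genes. Without overlap the two-sided exact permutation test always gives p = 0.00794, the lowest possible p with 5 against 5. For these 20 genes it therefore adds nothing to the lack of overlap.

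The filter itself favoured a rise for 5 of the genes, *Rrm2*, *Cdk1*, *Mki67*, *Top2a* and *Aurkb*, which reached 0.1 FPKM in LD retinas only. Among the 33 genes that reached it in at least 1 NL retina, 5 rose by over 2-fold and 16 rose at an adjusted p under 0.05 (48.5%), and their median log2 fold change was 0.41, against -0.01 over all genes tested. Most of the genes that rose by over 2-fold were low in FPKM, so their fold depended on the pseudocount: with 1 FPKM added in place of 0.1, 1 gene (*Ccnd1*) passed both limits, while the same 21 genes passed an adjusted p of 0.05.

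**Figure D1:**
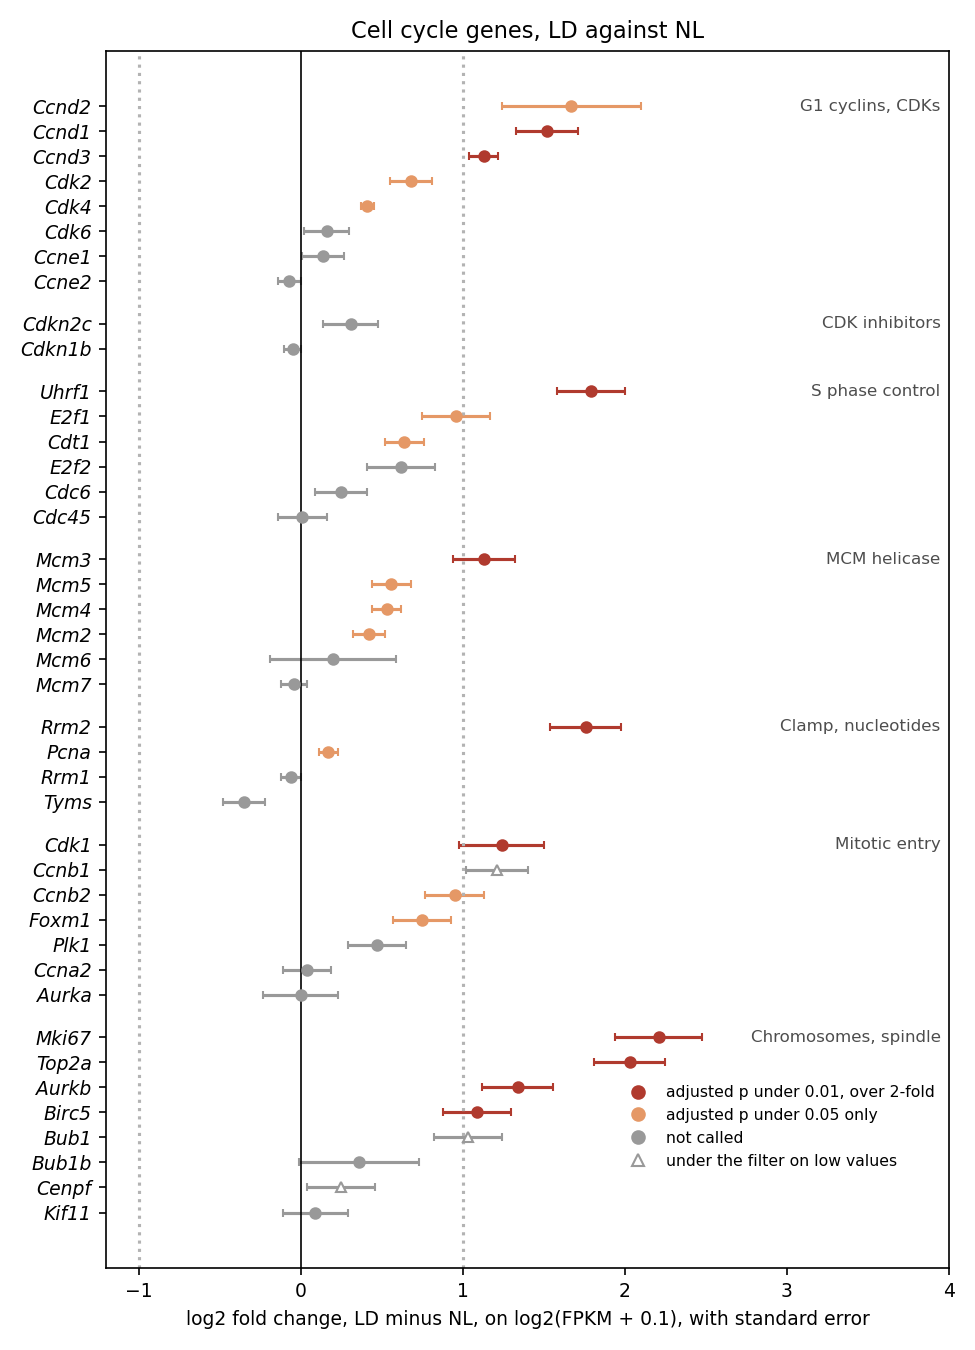
The log2 fold change (LD minus NL, on log2(FPKM + 0.1)) of the 41 genes is plotted by role, with bars for the standard error and dotted lines at a 2-fold change. The 10 genes in dark red sit right of the 2-fold line, the grey points lie near 0 or missed the limits, open triangles mark the 3 genes under the filter, and *Tyms* is the lowest at -0.35.

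Among the G1 genes, the 3 D-type cyclins and the kinases *Cdk4* and *Cdk2* rose, while *Cdk6*, *Ccne1* and *Ccne2* were not called. *Ccnd1*, the gene of cyclin D1 (chromosome 7, 144929931 to 144939925 on GRCm38), was at 3.18, 2.61, 2.09, 2.23 and 2.09 FPKM in NL-1, NL-4, NL-5, NL-7 and NL-8. It was at 5.54, 10.2, 9.07, 5.86 and 6.05 FPKM in LD-1, LD-4, LD-6, LD-7 and LD-8. The groups did not overlap, and the close pair LD-4 and LD-6 was the highest. The mean rose from 2.44 ± 0.464 to 7.34 ± 2.13 FPKM (mean ± SD, n = 5), with log2FC 1.52 (SE 0.19, adjusted p = 1.85e-04), on 200 to 320 reads under NL and 629 to 971 reads after LD. *Ccnd1* shares 1771 bases with *Oraov1* on the opposite strand, whose means were 4.66 and 4.17 FPKM in NL and LD. Whether reads were counted by strand is not given in the sources used here.

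*Ccnd3*, the gene of cyclin D3 (chromosome 17, 47505051 to 47599691), was the most abundant D-type cyclin. In the same order of retinas, it was at 4.08, 4.24, 5.37, 5.13 and 4.03 FPKM under NL and at 9.27, 9.76, 10.5, 10.3 and 10.4 FPKM after LD. The groups were far apart and the spread within each was small, and the log2FC was 1.13 (SE 0.09, adjusted p = 7.66e-06). It passed an adjusted p of 0.05 under all 22 alternatives, with a log2 fold change of 0.99 to 1.26. *Ccnd3* shares 361 bases with *Bysl* on the opposite strand, whose means were 6.04 and 6.99 FPKM.

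*Ccnd2*, the gene of cyclin D2 (chromosome 6, 127125162 to 127152193), differed more within groups. It was at 1.05, 0.165, 0.220, 0.255 and 0.787 FPKM in the NL retinas and at 1.94, 1.61, 1.74, 1.64 and 0.788 FPKM in the LD retinas. NL-1 and NL-8 were several times above the other NL retinas, LD-8 was below NL-1, and the groups therefore overlapped. The log2FC of 1.67 (SE 0.43) had an adjusted p of 0.0147, which ranged from 0.00460 to 0.144 over the alternatives. Averaging the closest pairs, or using only the retinas of shared numbers, ended the call. The antisense gene *9330179D12Rik*, which shares 2805 bases with *Ccnd2*, had means of 0.0272 and 0.263 FPKM in NL and LD.

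The kinase gene *Cdk4*, partner of the D-type cyclins, was more abundant in FPKM than any cyclin of the list. It was at 12.3 to 13.7 FPKM in the NL retinas and 16.7 to 18.2 FPKM in the LD retinas, without overlap, a small and even rise with log2FC 0.41 (SE 0.04, adjusted p = 5.14e-05). *Cdk2*, partner of the E-type cyclins, rose from 0.628 ± 0.0553 to 1.07 ± 0.107 FPKM (mean ± SD, n = 5), with log2FC 0.68 (SE 0.13, adjusted p = 0.00254). *Cdk2* shares 837 bases with *Pmel* on the opposite strand, whose means were 2.60 and 0.671 FPKM. For the E-type cyclins, *Ccne1* was at 1.47 ± 0.149 and 1.63 ± 0.273 FPKM and *Ccne2* at 3.32 ± 0.266 and 3.16 ± 0.192 FPKM under NL and after LD (adjusted p = 0.491 and 0.569). *Cdk6* was at 0.805 ± 0.148 and 0.904 ± 0.0617 FPKM (adjusted p = 0.443).

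Neither inhibitor was called. *Cdkn1b*, whose protein holds complexes of cyclin and kinase inactive in resting cells, had the highest level of the list in both groups, with means of 37.4 ± 1.82 and 36.0 ± 1.95 FPKM in NL and LD (SD, n = 5). The log2FC was -0.05 (SE 0.05, adjusted p = 0.486). *Cdkn2c*, an inhibitor of Cdk4 and Cdk6, was at 7.24 to 8.14 FPKM in the NL retinas, and at 12.6, 7.93, 6.42, 12.3 and 9.84 FPKM in LD-1, LD-4, LD-6, LD-7 and LD-8. The close pair LD-1 and LD-7 was above all NL retinas and the close pair LD-4 and LD-6 was not, and the adjusted p was 0.207 (0.0292 to 0.377 over the alternatives, under 0.05 without LD-6 and over the retinas of shared numbers without the block).

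**Figure D2:**
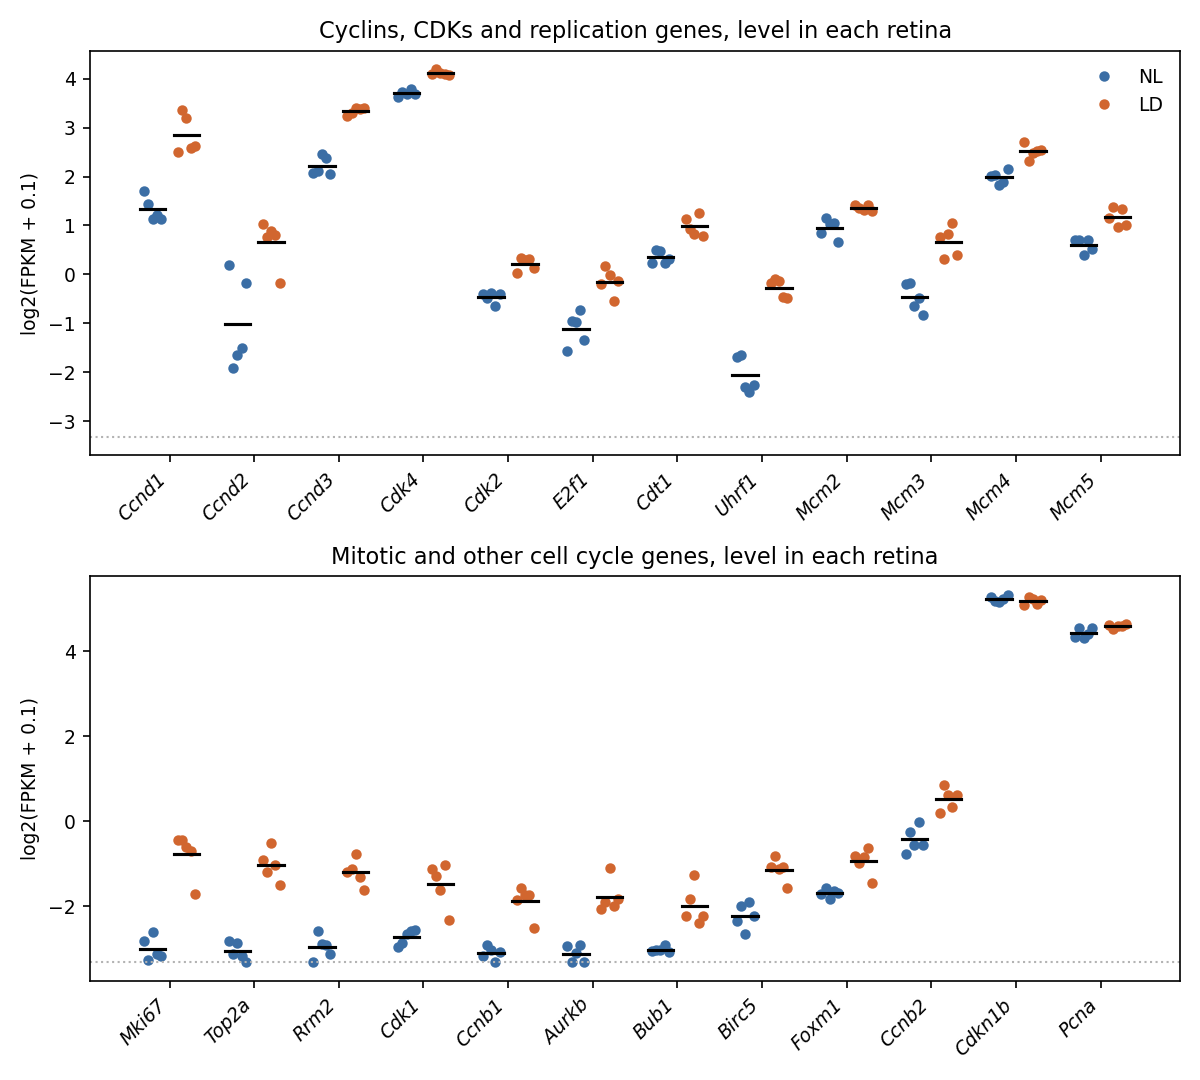
Each point is 1 retina, plotted as log2(FPKM + 0.1) for 24 of the genes, NL in blue and LD in orange, with a black line at the group mean and a dotted line at 0 FPKM. The groups separate for *Ccnd3*, *Cdk4* and *Uhrf1* and for the mitotic genes near 0 FPKM under NL, and overlap for *Ccnd2*, *Pcna* and *Cdkn1b*.

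Of the genes that control S phase, *Uhrf1*, *E2f1* and *Cdt1* rose and *E2f2*, *Cdc6* and *Cdc45* were not called. *Uhrf1*, whose protein helps to copy DNA methylation onto newly made strands, was at 0.209, 0.221, 0.104, 0.0885 and 0.109 FPKM under NL and 0.790, 0.834, 0.808, 0.629 and 0.612 FPKM after LD. No retina of either group reached the other, on 8 to 20 against 58 to 82 reads, and its log2FC was 1.79 (SE 0.21, adjusted p = 1.12e-04). *E2f1*, a transcription factor that turns on replication genes, rose from 0.373 ± 0.107 to 0.815 ± 0.160 FPKM (mean ± SD, n = 5), with log2FC 0.96 (adjusted p = 0.00552). *Cdt1*, which loads the MCM complex together with Cdc6, rose from 1.18 ± 0.119 to 1.89 ± 0.284 FPKM, with log2FC 0.64 (adjusted p = 0.00330).

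*E2f2*, a paralog of *E2f1*, was at 0.0807 to 0.134 FPKM in the NL retinas and 0.135 to 0.304 FPKM in the LD retinas. The groups did not overlap, but on 8 to 33 reads per retina the log2 fold change of 0.62 missed the limit (adjusted p = 0.0543, and 0.0279 to 0.308 over the alternatives). *Cdc6* was at 0.208 ± 0.0347 and 0.266 ± 0.0365 FPKM (adjusted p = 0.290). *Cdc45*, which joins the MCM complex when the helicase becomes active, was at 1.41 ± 0.305 and 1.40 ± 0.110 FPKM (adjusted p = 0.973).

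Of the 6 subunits of the MCM helicase, 4 rose and *Mcm6* and *Mcm7* were not called. *Mcm3* was at 0.773, 0.790, 0.538, 0.615 and 0.465 FPKM under NL and 1.61, 1.14, 1.67, 1.98 and 1.21 FPKM after LD, with log2FC 1.13 (SE 0.19, adjusted p = 0.00139). *Mcm5* (1.43 ± 0.144 to 2.16 ± 0.292 FPKM), *Mcm4* (3.86 ± 0.371 to 5.63 ± 0.548 FPKM) and *Mcm2* (1.84 ± 0.250 to 2.47 ± 0.105 FPKM) rose by 0.56, 0.53 and 0.42 on the log2 scale (adjusted p = 0.00488, 0.00111 and 0.0119). In these 4 genes no LD retina was as low as an NL retina. The call of *Mcm2* ended when the closest pairs were averaged, and with a block for the shared replicate numbers. *Mcm7*, the most abundant subunit under NL, was at 4.90 ± 0.545 and 4.74 ± 0.250 FPKM (log2 fold change -0.04, adjusted p = 0.751). Differences between the subunits' fold changes were not tested.

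*Mcm6* was the least even gene of the MCM group. It was at 1.02, 0.353, 1.44, 1.13 and 0.266 FPKM in NL-1, NL-4, NL-5, NL-7 and NL-8, and at 0.861, 0.846, 0.920, 0.913 and 0.655 FPKM in the LD retinas. The lowest NL value rested on 32 reads and the highest on 136 reads, and the LD values fell inside their range. The coefficient of variation over retinas was 60.6% under NL, and the log2 fold change of 0.20 had a standard error of 0.39 (adjusted p = 0.748).

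The 250 bases before the RefSeq start site of *Mcm3* and *Mcm6* (GRCm38.p6, minus strand, 5′ to 3′) are shown because these subunits had the largest and the least even difference. Capitals mark letters of 3 kinds of motif on either strand: the CCAAT box CCAAT, E2F-like letters (TTTCCCGC, TTTGGCGC, TTTCGCGC or TTTGCCGC) and CHR letters (TTTGAA or TTCGAA), the CHR being an element known from promoters of mitotic genes. The window of *Mcm3* is chr1:20820313-20820562 and that of *Mcm6* is chr1:128359706-128359955.
Mcm3 promoter: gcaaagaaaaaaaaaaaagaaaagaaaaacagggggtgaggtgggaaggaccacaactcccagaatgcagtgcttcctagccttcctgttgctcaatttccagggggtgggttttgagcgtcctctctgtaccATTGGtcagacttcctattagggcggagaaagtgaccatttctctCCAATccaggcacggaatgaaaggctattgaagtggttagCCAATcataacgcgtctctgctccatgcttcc
Mcm6 promoter: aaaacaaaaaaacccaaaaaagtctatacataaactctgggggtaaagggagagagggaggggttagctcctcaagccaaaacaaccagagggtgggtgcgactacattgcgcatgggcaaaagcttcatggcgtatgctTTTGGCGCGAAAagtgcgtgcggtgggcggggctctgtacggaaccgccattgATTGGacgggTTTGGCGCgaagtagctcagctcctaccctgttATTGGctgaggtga
The window of *Mcm3* held 3 CCAAT boxes and neither of the other motifs. That of *Mcm6* held 2 CCAAT boxes and 3 E2F-like matches, of which 2 overlap on opposite strands.

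Of the clamp and nucleotide genes, *Rrm2* and, by a small amount, *Pcna* rose. *Rrm2*, the small subunit of ribonucleotide reductase, which makes deoxynucleotides, was at 0, 0.0680, 0.0356, 0.0340 and 0.0140 FPKM under NL and 0.340, 0.356, 0.484, 0.301 and 0.227 FPKM after LD. These are 0 to 4 reads against 14 to 30 reads, without overlap, and the log2FC was 1.76 (SE 0.22, adjusted p = 1.71e-04). Its partner *Rrm1*, the large subunit, was at 3.55 ± 0.175 and 3.40 ± 0.180 FPKM (mean ± SD, n = 5), with log2FC -0.06 (adjusted p = 0.525). *Pcna*, the sliding clamp of DNA polymerases, was abundant in both groups, with 19.6 to 23.3 FPKM under NL and 22.7 to 24.9 FPKM after LD. The groups overlapped, and the log2 fold change of 0.17 (adjusted p = 0.0459) lost its call under 13 of 22 alternatives. *Tyms*, thymidylate synthase, had means of 1.55 ± 0.104 and 1.20 ± 0.221 FPKM, with an adjusted p of 0.0741 (0.0389 to 0.227 over the alternatives, under 0.05 with quantile normalization, with limma-voom and without LD-1 or LD-7).

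Genes of mitotic entry were low under NL, at most 2.46 FPKM in any NL retina. *Cdk1*, the kinase of mitosis, was at 0.0284, 0.0382, 0.0599, 0.0668 and 0.0707 FPKM in the NL retinas and at 0.226 to 0.392 FPKM in LD-1, LD-4, LD-6 and LD-7. Reads were 3, 4, 6, 7 and 9 in the NL retinas and 43, 31, 25, 44 and 11 in the LD retinas. The groups did not overlap, LD-8 was nearest to the NL retinas, and the log2FC of *Cdk1* was 1.24 (SE 0.26, adjusted p = 0.00474). The adjusted p was under 0.01 without NL-8 or LD-8 and 0.0104 to 0.0136 with each of the other 8 retinas left out. Averaging the closest pairs, or a block for the shared replicate numbers, took it above 0.05. *Ccnb1*, the gene of cyclin B1 that activates Cdk1, had 0 to 3 reads in each NL retina but 18, 20, 19, 19 and 7 reads in the LD retinas. Counted against a floor of 3 reads in each NL retina, it was at least 5.42-fold higher after LD, and a fit without the filter gave an adjusted p of 0.00152.

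*Ccnb2*, the gene of cyclin B2, was at 0.489, 0.738, 0.579, 0.892 and 0.582 FPKM under NL and 1.04, 1.71, 1.43, 1.15 and 1.44 FPKM after LD, with log2FC 0.95 (SE 0.18, adjusted p = 0.00321). *Foxm1*, a transcription factor of mitotic genes, rose from 0.210 ± 0.0214 to 0.428 ± 0.103 FPKM (mean ± SD, n = 5), with log2FC 0.75 (adjusted p = 0.0120). Its call was lost when the closest pairs were averaged, and over the retinas of shared numbers with or without the block. In both genes the groups did not overlap. Not called were *Ccna2* (cyclin A2, 2.03 ± 0.316 and 2.09 ± 0.368 FPKM), the kinase *Plk1* (0.559 ± 0.127 and 0.807 ± 0.130 FPKM) and the kinase *Aurka* (0.788 ± 0.236 and 0.780 ± 0.210 FPKM), with adjusted p = 0.889, 0.0753 and 0.995. The adjusted p of *Plk1* was under 0.05 in 5 of 21 alternatives (TPM, FPKM without the factor per retina, limma without trend, and without NL-4 or LD-8). *Ccna2* shares 863 bases with *Exosc9* on the opposite strand, which was at 2.99 and 3.15 FPKM.

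The largest log2 fold changes of the list were in genes of chromosomes and spindle. *Mki67*, the gene of the proliferation antigen Ki-67 that coats mitotic chromosomes (chromosome 7, 135689784 to 135716361), was at 0.0418, 0.00468, 0.0636, 0.0140 and 0.0116 FPKM in the NL retinas. After LD it was at 0.636, 0.632, 0.555, 0.515 and 0.205 FPKM. That is 1 to 13 reads against 46 to 156 reads, and LD-8, the lowest LD retina, was still above the highest NL retina. The means of 0.0272 and 0.509 FPKM differed 18.7-fold, or 28.2-fold without NL-5, the highest NL retina (15.5-fold to 21.7-fold without any 1 of the other 9 retinas), and the log2FC with the pseudocount was 2.21 (SE 0.27, adjusted p = 1.72e-04).

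*Top2a*, topoisomerase II alpha, which untangles sister chromatids (chromosome 11, 98992943 to 99024189), was at 0.0415, 0.0157, 0.0383, 0.0105 and 0 FPKM under NL and 0.428, 0.339, 0.595, 0.390 and 0.254 FPKM after LD. With 0 to 8 against 51 to 120 reads the groups were far apart, the means differed 18.9-fold, and its log2FC was 2.03 (SE 0.22, adjusted p = 6.74e-05). *Aurkb* and *Birc5* encode members of the chromosomal passenger complex. *Aurkb* went from 0 to 2 reads under NL up to 10 to 24 reads after LD, at least 4.30-fold above the floor of 3 reads (adjusted p = 0.00126). *Birc5* rose from 0.117 ± 0.0436 to 0.361 ± 0.0809 FPKM (mean ± SD, n = 5), with log2FC 1.09 (SE 0.21, adjusted p = 0.00303), again without overlap, but fell short of 2-fold without NL-5 (log2FC 0.98). The checkpoint kinase *Bub1* had 2 or 3 reads in each NL retina but 12, 16, 31, 9 and 11 reads in the LD retinas, at least 5.18-fold above the floor, and an adjusted p of 0.00694 in the fit without the filter.

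The other genes of chromosomes and spindle were not called. *Bub1b*, the partner of *Bub1* in the spindle checkpoint, had the highest level of this group. It was at 9.18, 6.19, 4.12, 3.98 and 10.7 FPKM in the NL retinas and at 14.9, 4.81, 5.87, 12.6 and 6.71 FPKM in the LD retinas. Values were alike within the close pairs, high in LD-1 and LD-7 and low in NL-5 and NL-7 and in LD-4 and LD-6, the groups overlapped, and the adjusted p was 0.527. *Kif11*, a spindle motor, was at 0.304 ± 0.0911 and 0.325 ± 0.0678 FPKM (adjusted p = 0.798). *Cenpf*, a kinetochore gene, was at 0.0492 ± 0.0131 and 0.0837 ± 0.0511 FPKM, with 4 to 52 reads in the LD retinas (adjusted p = 0.501 in the fit without the filter).

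**Figure D3:**
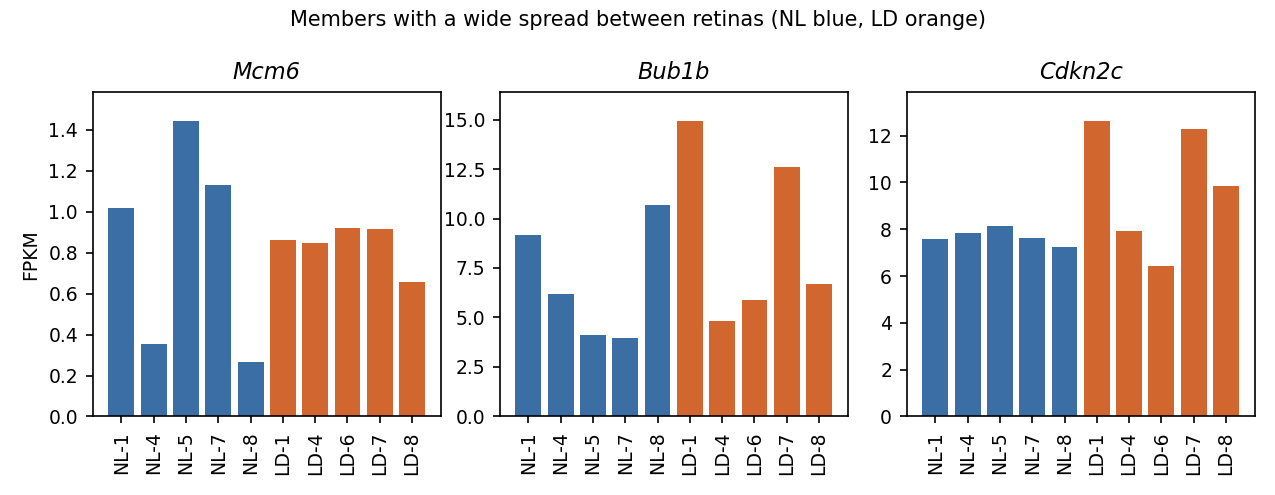
FPKM in each retina, NL in blue and LD in orange, for 3 genes with a wide spread. *Mcm6* is high in NL-1, NL-5 and NL-7 and low in NL-4 and NL-8, while *Bub1b* and *Cdkn2c* are high in LD-1 and LD-7.

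Promoters of *Mki67*, *Top2a* and *Ccnb2* are shown as examples from the mitotic genes that rose. The 250 bases before the RefSeq start site (GRCm38.p6, minus strand, 5′ to 3′) are chr7:135716380-135716629, chr11:99024190-99024439 and chr9:70421555-70421804, with the same motifs in capitals.
Mki67 promoter: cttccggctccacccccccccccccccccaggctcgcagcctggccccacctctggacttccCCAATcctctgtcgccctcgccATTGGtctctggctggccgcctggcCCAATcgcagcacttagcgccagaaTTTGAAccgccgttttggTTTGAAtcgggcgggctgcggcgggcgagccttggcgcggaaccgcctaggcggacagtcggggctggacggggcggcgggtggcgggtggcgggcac
Top2a promoter: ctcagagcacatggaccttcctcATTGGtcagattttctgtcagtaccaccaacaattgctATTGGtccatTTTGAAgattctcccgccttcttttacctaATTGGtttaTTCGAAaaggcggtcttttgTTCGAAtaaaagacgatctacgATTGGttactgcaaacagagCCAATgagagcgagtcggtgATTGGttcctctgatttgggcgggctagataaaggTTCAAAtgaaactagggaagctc
Ccnb2 promoter: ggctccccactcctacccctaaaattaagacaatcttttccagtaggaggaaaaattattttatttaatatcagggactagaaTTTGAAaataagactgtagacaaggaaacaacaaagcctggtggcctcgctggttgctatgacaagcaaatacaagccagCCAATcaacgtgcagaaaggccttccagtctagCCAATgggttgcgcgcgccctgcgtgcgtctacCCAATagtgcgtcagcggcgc
The window of *Mki67* held 3 CCAAT boxes and 2 CHR matches, that of *Top2a* 6 CCAAT boxes and 4 CHR matches, and that of *Ccnb2* 3 CCAAT boxes and 1 CHR match. The boxes of *Ccnb2* began 87, 54 and 21 bases before the start. These 3 windows do not stand for all mitotic genes that rose. That of *Cdk1* held 3 CCAAT boxes, 2 CHR matches and 1 E2F-like match. Those of *Ccnb1* and *Bub1* each held 2 CCAAT boxes and 0 CHR matches, and that of *Birc5* held 0 matches of any kind.

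Of the 41 genes, 34 had a promoter in the RefSeq table. A CCAAT box on either strand was found in 24 of the 34 (70.6%), against 35.2% of the 13456 tested genes with a promoter. E2F-like letters were found in 6 (17.6%, against 2.99%) and CHR letters in 9 (26.5%, against 12.2%). The windows of *Cdk6*, *Mcm7*, *E2f1*, *Cdkn2c* and *Cdc6* lie wholly inside the gene as GENCODE places it. Those of *Mcm7* and *Cdc6* are among the 6 with E2F-like letters. A CCAAT box was in 13 of the 18 genes that rose at an adjusted p under 0.05, with *Ccnb1* and *Bub1* counted among them (72.2%), and in 11 of the 16 others (68.8%). E2F-like letters were in 3 of the 18 (16.7%) and 3 of the 16 (18.8%), and CHR letters in 5 of the 18 (27.8%) and 4 of the 16 (25.0%). A match of letters is a description of the sequence and not a measured binding site.

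The genes that were lowest under NL differed among the LD retinas. The 11 genes with an NL mean under 0.2 FPKM, a limit set after the values were seen, were *Mki67*, *Top2a*, *Rrm2*, *Uhrf1*, *Cdk1*, *Ccnb1*, *Aurkb*, *Bub1*, *Birc5*, *E2f2* and *Cenpf*, where *E2f2* was not called and *Ccnb1*, *Bub1* and *Cenpf* were under the filter. *Uhrf1* lay just under the limit with 0.146 FPKM and *Cdc6* just above it with 0.208 FPKM. The 11 genes summed to 0.685, 0.684, 0.557, 0.597 and 0.517 FPKM in the NL retinas and to 3.56, 3.85, 4.31, 3.32 and 2.32 FPKM in the LD retinas. Choosing genes by a low NL mean itself favours a low NL sum, so these sums are no separate evidence of a rise. LD-8 had the lowest sum after LD. It was the lowest LD retina in 21 of the 41 genes and in 10 of the 15 genes of mitosis. The share over all genes was not computed. Without LD-8, 10 genes rose by over 2-fold and 21 rose at an adjusted p under 0.05, and 20 of these 21 were also called with it.

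Some markers of immune cells rose as well. The 7 microglia markers examined summed to 9.01 to 11.9 FPKM under NL. They summed to 22.3, 12.9, 13.2, 18.7 and 8.96 FPKM in LD-1, LD-4, LD-6, LD-7 and LD-8. LD-8 was just under the NL range and the other LD retinas were above it (two-sided exact permutation test of the sums, p = 0.0556). LD-8 was also the lowest LD retina for the summed astrocyte and pericyte markers (78.4 and 7.49 FPKM), but not for endothelial, Müller glia or rod markers. The highest LD sum was in LD-1 for microglia and in LD-6 for the 11 genes above. With 5 LD samples that include close pairs, an association between these sums was not tested. Of the 7, *Cx3cr1* and *Aif1* rose by over 2-fold, *Csf1r* rose by less (adjusted p = 0.0412), and *P2ry12*, *Tmem119*, *Siglech* and *Sall1* were not called. The 8 markers of other myeloid cells summed to 2.74 to 5.24 FPKM under NL and 22.1 to 29.6 FPKM after LD. *Cd44* alone was at 1.60 to 2.15 and 12.4 to 17.0 FPKM and made up most of the LD sum. Whether its reads came from myeloid cells was not tested. Of the 8, *Lyz2*, *Plac8* and *Cd44* rose by over 2-fold and *Itgal* by less (adjusted p = 0.0359), and *S100a8* and *S100a9* were not called (adjusted p = 0.121 and 0.792). *Ccr2* and *Ly6c2* were under the filter, and *Ly6c2* had 0 reads throughout NL but 4 to 17 reads after LD. The lymphocyte markers summed to 0.680 to 1.09 FPKM under NL and 0.417 to 0.776 FPKM after LD, and *Ms4a1* was at 0 in all 10 retinas.

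Markers of other cell types also differed. Of the 6 markers of Müller glia, *Slc1a3* and *Sox9* rose at an adjusted p under 0.05, *Glul* fell and 3 were not called. The 6 endothelial markers summed to 32.8 to 43.6 FPKM under NL and 48.1 to 81.9 FPKM after LD. Most of this sum was *Kdr*, which rose (27.1 to 37.1 FPKM under NL, 38.1 to 64.4 FPKM after LD, adjusted p = 0.00876), and the other 5 were not called. The 4 astrocyte markers summed to at most 34.1 FPKM under NL and at least 78.4 FPKM after LD, most of it *Gfap* (7.24 to 23.1 and 62.6 to 127 FPKM). *Gfap* and *Aldh1l1* rose, while *Pax2* (log2FC 0.36, adjusted p = 0.354) and *S100b* (log2FC -0.47, adjusted p = 0.0674) were not called. The study reports GFAP staining in Müller glia too after light stress, in mice of another strain. Whether the *Gfap* reads came from astrocytes or from Müller glia was not tested. Of the 6 markers of retinal progenitors 5 were tested, 0 rose and *Hes5* fell. The part of these cell types in the rise of the cell cycle genes was not tested.

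**Figure D4:**
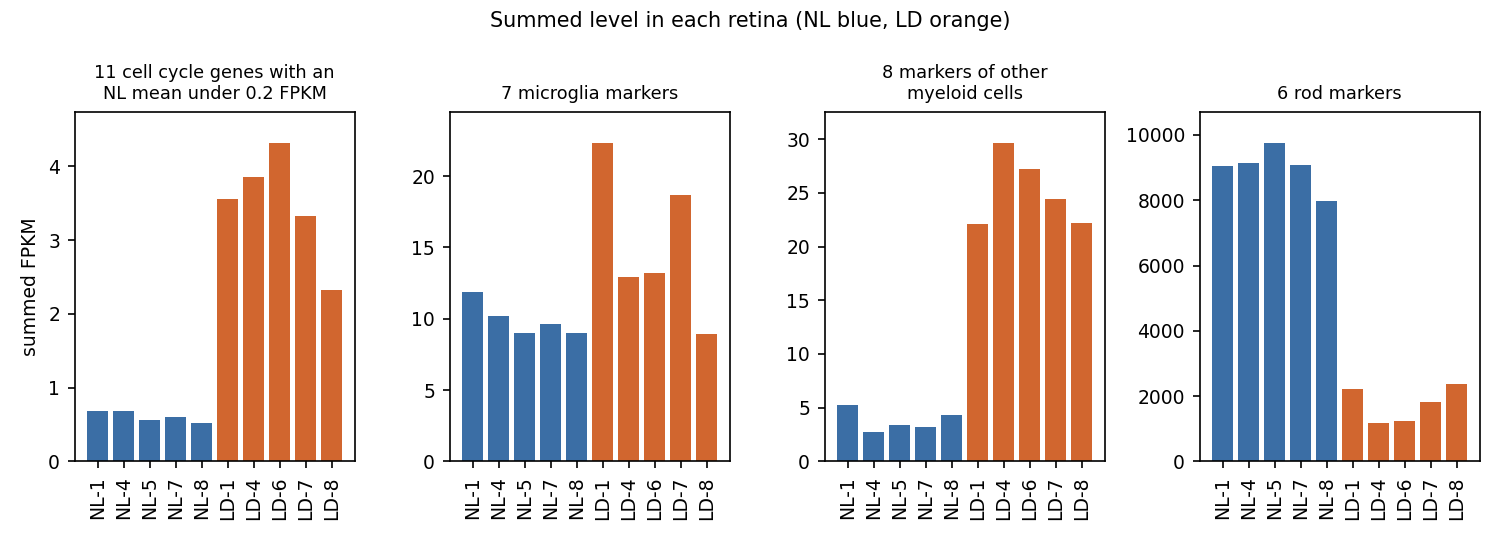
Bars give the summed FPKM in each retina, NL in blue and LD in orange, for the 11 cell cycle genes with an NL mean under 0.2 FPKM and for the markers of microglia, other myeloid cells and rods. The sum of the 11 genes is 2.32 to 4.31 FPKM after LD against at most 0.685 FPKM under NL, and the rod bars go the other way. The 11 genes were chosen by their low NL mean, which itself favours low NL bars. LD-8 is the lowest LD bar for these genes and for microglia, and the highest LD bar for rods. *Cd44* makes up most of the myeloid bars after LD.

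Further genes of the same processes were examined besides the 41. Of 51 other replication genes (polymerases, origin factors, ligases and others) 49 were tested, 5 rose (10.2%, against 14.5% of all genes tested) and 4 fell (8.16%, against 13.4%) at an adjusted p under 0.05, and the median log2 fold change was -0.05. Among them *Pola2*, a subunit of the polymerase that lays down primers, was the only gene that rose by over 2-fold, from 3.27 ± 0.188 to 7.19 ± 0.223 FPKM (mean ± SD, n = 5), with log2FC 1.11 (adjusted p = 3.12e-07). Of 69 other mitosis genes 53 were tested, 14 rose (26.4%, against the same 14.5%) and 4 fell (7.55%, against 13.4%), with a median of 0.17. *Ube2c*, *Cdca5* and *Pbk* passed the filter through LD retinas only, and are 3 of the 6 that rose by over 2-fold. Those above 2-fold were *Ube2c* (log2 fold change 1.62) and *Cdc20* (1.04), which serve the complex that ends mitosis, *Pttg1* (1.52) and *Cdca5* (1.30), which act on the cohesion of sister chromatids, the motor *Kif14* (1.28) and the kinase *Pbk* (1.39).

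Of 44 other regulators of the cycle 40 were tested, 8 rose (20%, against 14.5% of all genes tested) and 6 fell (15%, against 13.4%) at an adjusted p under 0.05, with a median log2 fold change of 0.02. The 4 above 2-fold were *Myc*, the kinase inhibitors *Cdkn1a* and *Cdkn2b*, and *E2f6*. *Myc*, a transcription factor that promotes growth, rose from 0.318 ± 0.117 to 4.84 ± 0.663 FPKM (mean ± SD, n = 5), with log2FC 3.61 (adjusted p = 1.49e-06). The kinase inhibitors *Cdkn1a* (1.08 ± 0.496 to 4.96 ± 0.485 FPKM) and *Cdkn2b* (0.496 ± 0.143 to 3.11 ± 1.17 FPKM) rose by 2.20 and 2.39 on the log2 scale (adjusted p = 1.56e-04 and 8.34e-05). *E2f6*, an E2F factor that represses its targets, rose from 9.06 ± 0.872 to 23.7 ± 8.13 FPKM, with log2FC 1.32 (adjusted p = 5.85e-04).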

How the data were processed

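The authors deposited FPKM per gene for 10 retinas. The submitters' processing notes name TopHat2 2.0.9, Bowtie2 2.0.6 and mm8, but the positions are on GRCm38: 53585 of 54532 identifiers have the same position in GENCODE M21, the 41 genes among them. The counting program is not given in the sources used here. FPKM times gene length gave whole reads (within 0.01 read) for 100% of values. The authors' library size was the reads times a factor of 0.951 to 0.968 (NL) or 1.041 to 1.069 (LD).

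On log2(FPKM + 0.1), limma 3.58.1 under R 4.3.3 was fitted to both groups without a block, using its trend of variance with level. P-values were adjusted by Benjamini-Hochberg over 24508 genes. Changes of low genes are understated on this scale. Exact permutation tests went through all splits of 5 against 5 retinas, in Python 3.11.15 with numpy 2.4.6. On simulated data, 192 of 200 changed genes and 2 unchanged genes were called. The planted changes were larger than those of most genes called here. They were placed only in genes with more reads than *Mki67*, *Top2a*, *Rrm2* or *Aurkb* had under NL, and samples were simulated as independent. The simulation therefore says nothing about calls at such low reads or with close pairs. The floor was 3 reads per NL retina and covers counting error only. The study calls the 5 columns of each group biological replicates, but no label says that each came from a separate mouse, so p-values measure the spread between these samples. Genes, lists and tests were chosen with earlier results of these data known. All 41 genes were accounted for, with other pathway genes named if past an adjusted p of 0.01 and 2-fold, at most 6 per list. A microglia marker of the list as first drawn up is not reported here and was left out of its sum. Alternatives changed the pseudocount, filter, scaling, test, block and retinas.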

Additional observations from a re-analysis of the deposited data

Results flagged for a closer look

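For each of the 38 genes tested, the 5 NL and the 5 LD values were searched for a value that stood apart, and 6 of the 76 sets held one (3.8 are due to chance). LD-8 stood apart for 3 genes, each time as the lowest. Its *Mki67* level was 0.205 FPKM while the remaining LD values were 0.515 to 0.636 FPKM, its *Ccnd2* level was 0.788 FPKM (remaining values 1.61 to 1.94 FPKM), and its *Mcm6* level was 0.655 FPKM (0.846 to 0.920 FPKM). For *Aurkb*, LD-6 was the highest with 0.364 FPKM (0.139 to 0.183 FPKM). For *Ccne2*, NL-8 was the highest NL retina with 3.78 FPKM (3.11 to 3.27 FPKM), and for *Tyms*, NL-5 was the lowest with 1.37 FPKM (1.56 to 1.64 FPKM).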

How the results depend on the processing

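The number of genes of the list that rose by over 2-fold at an adjusted p under 0.01 (10) was 1 with a pseudocount of 1, 3 with a filter on a mean of 1 FPKM, which left 21 of the 41 genes to test, and 7 with the closest pairs averaged. It was 13 with TPM, without the factor per retina and with limma-voom on the recovered reads. The number that rose at an adjusted p under 0.05 (21) was 11 with the filter on the mean and 16 with the closest pairs averaged. The number that fell (0) was 1, *Tyms*, with quantile normalization and with limma-voom. When 1 retina at a time was left out, the numbers were 8 to 11, 20 to 22 and 0 to 1, *Tyms* without LD-1 or LD-7. Over all genes, 816 in place of 1595 passed both limits with a pseudocount of 1, and 4353 in place of 6818 passed an adjusted p of 0.05 with the closest pairs averaged. The median log2 fold change of all genes moved from -0.01 to 0.09 with TPM and to 0.11 without the factor per retina. Both groups share the numbers 1, 4, 7 and 8, but the deviations of same-numbered retinas correlated by only -0.09 to 0.07. No pairing was thus visible, though these correlations cannot exclude a shared cage, day or batch. With the replicate block over these retinas 5 genes of the list rose by over 2-fold and 13 at an adjusted p under 0.05 (7 and 19 without the block), and over all genes 808 and 3805 were called. The block ended the calls at 0.05 of *Ccnd2*, *Mcm2*, *Pcna*, *Cdk1*, *Foxm1*, *Cdk2*, *E2f1* and *Birc5*. For *Cdk2*, *E2f1* and *Birc5* (limma, adjusted p = 0.0730, 0.0749 and 0.0513 with the block) no other alternative did so. Low reads limit the precision of the 5 genes that passed the filter through LD retinas only.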
